A study of Mus musculus with 8 samples.

Results

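The 10 genes described here, Bcl2, Bcl2l1, Mcl1, Bcl2a1b, Bax, Bak1, Bcl2l11, Bid, Pmaip1 and Bbc3, belong to the Bcl2 family and were taken by their symbols from the 49212 genes counted in 8 RNA-seq libraries of regulatory T (Treg) cells. All 10 were kept by the filter on low counts in every comparison. The study asked how Treg cells of tumors and spleens differ when Prdm1, which encodes the transcription factor Blimp1, is deleted in cells that express Foxp3. C57BL/6 mice carried subcutaneous B16-OVA tumors, a melanoma line that expresses ovalbumin, of at most 1.5 cm3, and received NP-OVA intraperitoneally in complete Freund's adjuvant (CFA, day 0) and incomplete adjuvant (IFA, day 7). Effector Treg (eTreg) cells, sorted as CD44+YFP+ cells among CD3+CD4+ leukocytes, came from spleens and from tumors (tumor-infiltrating, TIL). The KO groups were of genotype Prdm1fl/flFoxP3YFP-Cre and the WT groups of genotype FoxP3YFP-Cre, so both carried the YFP-Cre allele and the WT groups lacked only the floxed Prdm1 alleles. The Cre acts only in cells that have used the Foxp3 locus, and YFP marks cells in which that locus is active at the sort. Mice were generally between 5 and 10 weeks old, and the labels give no age for these samples. Each of the 4 groups (KO spleen, WT spleen, KO TIL and WT TIL) had 2 libraries, and nothing says that these came from separate mice, so p-values measure the spread between these samples, which may be technical.

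Proteins of the Bcl2 family control the permeability of the outer mitochondrial membrane, the step at which cytochrome c is released and caspases are activated. Protective members such as Bcl2, Bcl-xL, Mcl1 and A1 bind and hold back the effectors Bax and Bak, which form the pores, and the BH3-only proteins Bim, Bid, Noxa and Puma either occupy the protective members or activate the effectors. In Treg cells, Mcl1 is needed for survival, Bim is a main brake on cell number, and interleukin-2 acting through STAT5 is a main survival signal.

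The libraries held 43903859 and 35076472 counts on genes in KO spleen, 30539772 and 28269666 in WT spleen, 35318365 and 27834676 in KO TIL, and 29724913 and 30854014 in WT TIL, always given as replicate 1 and then replicate 2. Levels are in CPM, counts scaled to the same total in each library by edgeR's TMM method, and 3 counts, taken as the floor, equal between 0.0644 and 0.112 CPM, which covers counting error only. As a check only that no library had been split and deposited as 2, replicates were set against sampling noise, and had a chi-square per degree of freedom of 41.2 in KO spleen, 352.7 in WT spleen, 384.2 in KO TIL and 125.6 in WT TIL.

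Prdm1 itself was at 40.7 and 53.4 CPM in KO spleen, 54.1 and 21.0 in WT spleen, 90.7 and 75.1 in KO TIL, and 108 and 192 in WT TIL. The splenic groups overlapped, and the KO TIL libraries were below the WT TIL libraries by a log2 difference of -0.86 that did not pass the test, so the counts separate the labelled genotypes in TIL, without passing, and not in spleen. The counts run over all exons, which also measures transcripts that lack the deleted exons, so this checks the labels only in part, and KO and WT are used here as labels.

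The marker genes of the sorted cells set KO TIL apart. Foxp3 was at 43.1 and 56.4 CPM in KO spleen, 69.6 and 58.1 in WT spleen, 10.2 and 2.99 in KO TIL, and 25.5 and 60.5 in WT TIL, and Cd4 at 148 and 66.2 CPM in KO TIL against 807 and 1086 in WT TIL. The 4 Treg markers summed to 895 and 947 CPM in KO spleen, 1311 and 1250 in WT spleen, 601 and 1067 in KO TIL, and 5019 and 6859 in WT TIL. Ctla4 was the most abundant of them in TIL and in KO spleen replicate 1, and Ikzf2 in the other 3 splenic libraries. Each of the 4 was lower in both KO TIL than in both WT TIL libraries (median log2 fold change -2.79), and DESeq2 called all 4 and edgeR none. The 4 CD4 T cell markers, of which Cd3e had the highest total over the 8 libraries, summed to 931 and 3045 CPM in KO TIL and to between 3577 and 5173 in the other groups. Each KO TIL library thus held less Foxp3 and Cd4 than either WT TIL library, and KO TIL replicate 1 was the lowest of all for the CD4 T cell sum.

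Markers of cells outside the gate were present in all TIL libraries in unequal amounts. The gene named with each list below had the highest total over the 8 libraries and need not lead in each of them. The 7 macrophage markers (Lyz2) summed to 259 and 695 CPM in KO spleen, 380.2 and 1561 in WT spleen, 13979.7 and 1556 in KO TIL, and 2829 and 439.9 in WT TIL. Lyz2 was the most abundant of them in TIL only; in spleen it was at 18.5 to 99.0 CPM, and Csf1r or, in WT spleen replicate 2, C1qb was the most abundant. The 6 melanoma markers (Tyrp1) summed to 3201 and 830.1 CPM in KO TIL and 2078 and 1140.1 in WT TIL, and to at most 6.74 in spleen, where 2 to 4 of them had no counts. The 2 CD8 T cell markers (Cd8a) summed to 406 and 2222 CPM in KO TIL, 148 and 48.3 in WT TIL, and at most 30.7 in spleen. Macrophage markers were thus by far the highest in KO TIL replicate 1 and, within spleen, in WT spleen replicate 2, and CD8 T cell markers were higher in both KO TIL libraries than in all others. The 5 neutrophil markers (S100a8) summed to 382 and 199.7 CPM in KO TIL and 66.3 and 5.23 in WT TIL, and the 3 NK cell markers (Klre1) to 55.4 and 99.6 in KO TIL and 7.98 and 1.01 in WT TIL. The 4 dendritic cell markers (Zbtb46) summed to between 34.4 and 57.5 CPM in TIL and 9.88 and 14.8 in spleen. Sums of the 4 B cell markers (Cd79b) lay between 9.69 and 87.7 CPM, and those of the 4 fibroblast markers (Col1a1), between 0.516 and 9.86 CPM. KO TIL replicate 1, WT TIL replicate 1 and WT spleen replicate 2 stood apart from their partners in these sums, WT TIL replicate 1 with more macrophage, neutrophil and NK cell markers than WT TIL replicate 2. KO TIL replicate 2 in turn had the highest CD8 T cell and NK cell sums of the 8 libraries and the lowest Foxp3 and Cd4. Fits without KO TIL replicate 1 rest on KO TIL replicate 2 alone in that group. Several results are given below with and without these libraries. In bulk RNA, fewer cells of a type and less RNA per cell cannot be told apart.

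The protective genes come first. Bcl2 (chromosome 1, 106538178 to 106714274, minus strand, GRCm38) was at 108 and 148 CPM in KO spleen, 122 and 140.1 in WT spleen, 80.1 and 134 in KO TIL, and 16.7 and 36.1 in WT TIL. Both WT TIL libraries were lower than the other 6, among which the groups overlapped. Bcl2l1 (chromosome 2, 152780668 to 152831728, minus strand), which encodes Bcl-xL, was at 55.5 and 50.5 CPM in KO spleen, 73.5 and 46.2 in WT spleen, 154 and 88.3 in KO TIL, and 231 and 198 in WT TIL. All 4 TIL libraries were above all 4 splenic libraries, with WT TIL the highest. Mcl1 (chromosome 3, 95658788 to 95663176, plus strand), which encodes a short-lived protective protein, was at 222 and 174 CPM in KO spleen, 221 and 281 in WT spleen, 885 and 309 in KO TIL, and 88.6 and 97.5 in WT TIL. The KO TIL libraries were the highest and the WT TIL libraries the lowest, and the 2 KO TIL libraries lay far apart.

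Bcl2a1b (chromosome 9, 89199209 to 89207827, plus strand) is a copy of the gene for A1 with near-identical neighbours. Only unique reads were counted, so its counts are uncertain. Its transcript was 97.9% identical to that of Bcl2a1a and 93.9% to that of Bcl2a1d. Bcl2a1b was at 134 and 119 CPM in KO spleen, 141 and 202 in WT spleen, 254 and 276 in KO TIL, and 274 and 267 in WT TIL. All TIL libraries were above all splenic libraries, and the genotypes overlapped within TIL. Bcl2a1d followed this order, with 81.2 and 64.3 CPM in KO spleen, 78.2 and 96.0 in WT spleen, 214 and 271 in KO TIL, and 259 and 199.6 in WT TIL. Bcl2a1a was lower, at 5.67 and 7.96 CPM in KO spleen, 6.20 and 24.8 in WT spleen, 92.0 and 25.7 in KO TIL, and 24.4 and 10.7 in WT TIL, and in each of the 4 groups it was higher in the library with the larger macrophage sum.

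Of the effectors, Bax (chromosome 7, 45461697 to 45466898, minus strand) was at 71.1 and 64.1 CPM in KO spleen, 63.7 and 128 in WT spleen, 102 and 116 in KO TIL, and 97.2 and 95.6 in WT TIL. WT spleen held both its lowest and its highest value. Bak1 (chromosome 17, 27019810 to 27029009, minus strand), which encodes Bak, was at 2.49 and 1.88 CPM in KO spleen, 2.16 and 6.42 in WT spleen, 2.86 and 4.49 in KO TIL, and 2.26 and 3.14 in WT TIL. The highest Bak1 value was again that of WT spleen replicate 2, and all values were well above the floor, with 63 to 180 counts per library.

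Among the BH3-only genes, Bcl2l11 (chromosome 2, 128126038 to 128162547, plus strand), which encodes Bim, was at 27.3 and 39.3 CPM in KO spleen, 28.4 and 23.8 in WT spleen, 205 and 139.7 in KO TIL, and 78.7 and 53.9 in WT TIL. All TIL libraries were above all splenic libraries, and within TIL both KO libraries were above both WT libraries. Pmaip1 (chromosome 18, 66458604 to 66465550, plus strand) encodes Noxa, which binds chiefly Mcl1 and A1. It was at 45.6 and 42.7 CPM in KO spleen, 32.2 and 15.1 in WT spleen, 226 and 154 in KO TIL, and 199 and 248 in WT TIL. The tissues were apart by more than any spread within them, with the genotypes overlapping in TIL and KO above WT in spleen.

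Bbc3 (chromosome 7, 16308393 to 16318205, plus strand), which encodes Puma, was at 11.8 and 22.5 CPM in KO spleen, 11.3 and 17.7 in WT spleen, 6.06 and 8.79 in KO TIL, and 4.10 and 6.85 in WT TIL. All 4 TIL libraries were below all 4 splenic libraries. Bid (chromosome 6, 120891930 to 120916853, minus strand), which links death receptors to the mitochondrion once caspase-8 has cut it, was at 56.9 and 59.2 CPM in KO spleen, 65.2 and 47.1 in WT spleen, 40.4 and 42.4 in KO TIL, and 45.1 and 49.8 in WT TIL. KO TIL was the lowest group, in a narrow range. Exons of Bcl2, Bak1 and Bid overlap a gene on the opposite strand, and their counts are uncertain because the use of strand in counting is not stated. Exons of Bcl2a1b and Bax overlap a gene on the same strand, where reads are ambiguous whether or not strand was used.

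**Figure D1:**
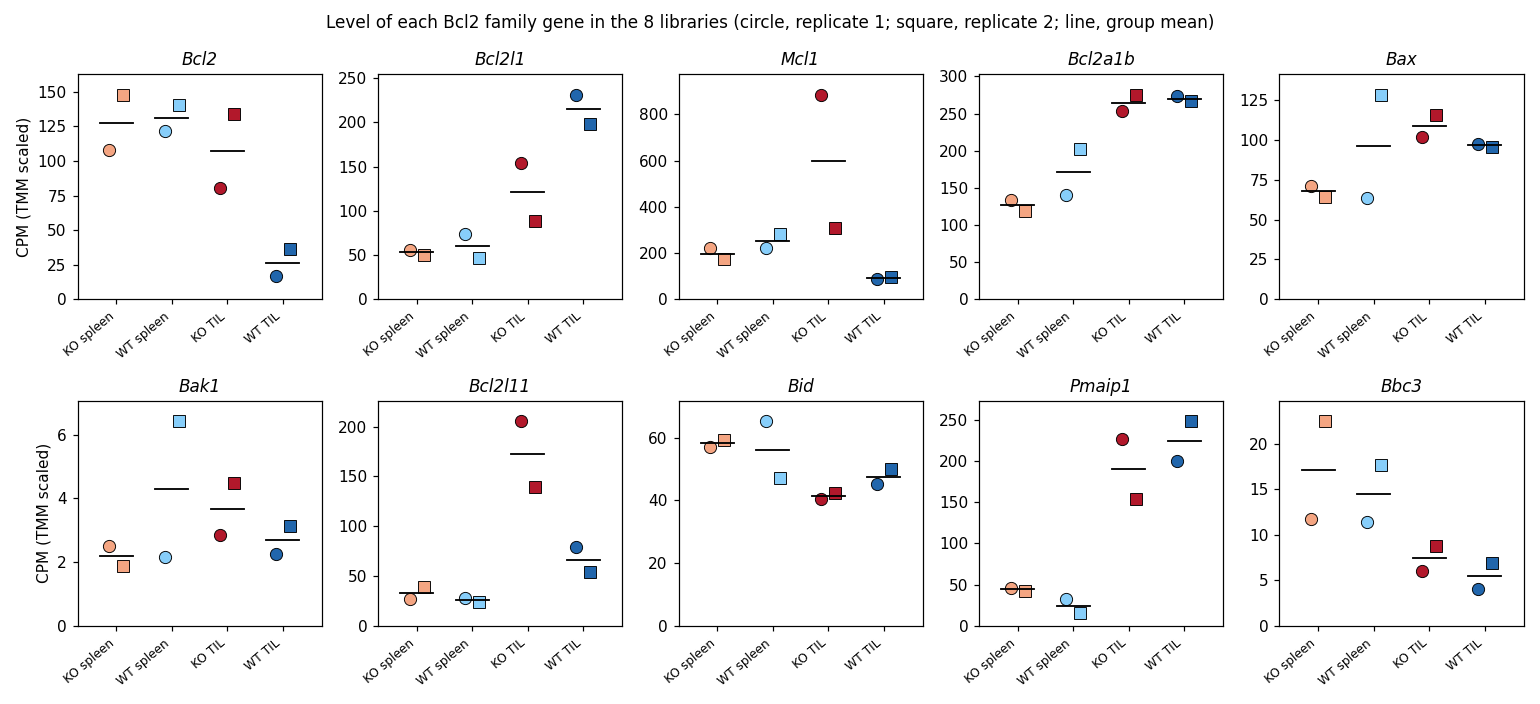
Level of each of the 10 genes in each of the 8 libraries, in CPM on a linear axis from 0, by group. Each point is a library (circle, replicate 1; square, replicate 2) and each line a group mean. Bcl2 is lowest in the WT TIL libraries (16.7 and 36.1 CPM) and Mcl1 highest in the KO TIL libraries (885 and 309 CPM).

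Levels of different genes were compared per kilobase of exon. Bcl2a1b was the highest and Bak1 the lowest of the 10 in all 8 libraries. In WT spleen the means per kb ran from Bcl2a1b (209.5 ± 52.9 CPM per kb, SD, n = 2) through Mcl1 (73.4 ± 12.4), Bax (60.9 ± 29.0), Bid (15.8 ± 3.62), Bcl2 (14.3 ± 1.42), Bcl2l1 (13.0 ± 4.21), Pmaip1 (8.94 ± 4.58), Bbc3 (6.83 ± 2.10) and Bcl2l11 (3.25 ± 0.401) to Bak1 (1.78 ± 1.25). Only Bcl2a1b and Mcl1, Bax and Bid, and Bbc3 and Bcl2l11 were neighbours apart by more than the sum of their SDs in that group. The KO spleen means followed a similar order, with Bcl2a1b at 155 ± 13.6 CPM per kb, Mcl1 at 57.9 ± 10.1, Bax at 42.9 ± 3.13, Pmaip1 at 16.7 ± 0.772, Bid at 16.4 ± 0.457, Bcl2 at 13.9 ± 3.11, Bcl2l1 at 11.6 ± 0.773, Bbc3 at 8.05 ± 3.57, Bcl2l11 at 4.15 ± 1.06 and Bak1 at 0.907 ± 0.181 (SD, n = 2). The 6 genes from Pmaip1 to Bcl2l11 did not differ from their neighbours beyond that sum.

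WT TIL had another order, with Bcl2a1b at 331 ± 6.25 CPM per kb, Pmaip1 at 84.5 ± 13.0, Bax at 61.2 ± 0.726, Bcl2l1 at 46.8 ± 5.06, Mcl1 at 27.2 ± 1.84, Bid at 13.4 ± 0.947, Bcl2l11 at 8.26 ± 2.18, Bcl2 at 2.88 ± 1.50, Bbc3 at 2.58 ± 0.917 and Bak1 at 1.12 ± 0.257 (SD, n = 2). Only Bcl2 and Bbc3 were neighbours within the sum of their SDs. Mcl1, the second gene in the other 6 libraries, was thus the fifth in both WT TIL libraries, and Pmaip1 the second. In KO TIL, Bcl2a1b was at 324 ± 18.9 CPM per kb, Mcl1 at 175 ± 119, Pmaip1 at 71.8 ± 19.4, Bax at 69.0 ± 6.30, Bcl2l1 at 26.4 ± 10.1, Bcl2l11 at 21.5 ± 5.80, Bcl2 at 11.7 ± 4.17, Bid at 11.7 ± 0.405, Bbc3 at 3.50 ± 0.908 and Bak1 at 1.53 ± 0.479 (SD, n = 2). There Mcl1, Pmaip1 and Bax, and likewise Bcl2l1, Bcl2l11, Bcl2 and Bid, did not differ from their neighbours beyond that sum.

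The first comparison asks what eTreg cells of WT mice differ in between tumor and spleen. Bcl2 was 4.96-fold lower, Bcl2l1 3.60-fold higher and Pmaip1 9.49-fold higher in WT TIL than in WT spleen, so that transcripts of 1 protective gene fell while those of another protective gene and of a BH3-only gene rose. These 3 of 10 genes passed edgeR's quasi-likelihood test, two-sided, with Benjamini-Hochberg adjustment (adjusted p of at most 0.05 and a log2 fold change of more than 1 in size), against 981 of 16427 genes tested (5.97%). The log2 fold change from edgeR was -2.31 for Bcl2 (standard error 0.50, adjusted p = 0.0252), 1.85 for Bcl2l1 (standard error 0.46, adjusted p = 0.0418) and 3.25 for Pmaip1 (standard error 0.52, adjusted p = 0.00662), each in the same direction in both TIL libraries against both splenic libraries. Mcl1, 88.6 and 97.5 against 221 and 281 CPM, had a log2 fold change of -1.43 that did not pass (adjusted p = 0.0915 from edgeR), and Bcl2l11 one of 1.35 (adjusted p = 0.114 from edgeR). DESeq2's Wald test called 5 of the 10, adding Mcl1 (adjusted p = 0.0390) and Bcl2l11 (adjusted p = 0.0481), against 1805 of 18206 genes (9.91%).

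Over all alternatives, the edgeR or DESeq2 adjusted p of Mcl1 in this comparison ranged from 0.0376 to 0.804 and that of Bcl2l11 from 0.0481 to 0.876. The other 5 genes had log2 fold changes of 0.66 for Bcl2a1b, 0.0018 for Bax, -0.67 for Bak1, -0.24 for Bid and -1.41 for Bbc3, with edgeR adjusted p between 0.202 and 0.999. Unadjusted p was under 0.05 for 6 of the 10 against 3366 genes (20.5%), and 7 of the 10 had groups without overlap against 8564 genes (52.1%). Pmaip1 passed edgeR's test without any 1 of the 4 libraries (log2 fold change 2.84 to 3.91, adjusted p 0.00307 to 0.0355). Bcl2 did not pass without WT spleen replicate 2 (-2.16, edgeR adjusted p = 0.0944), WT TIL replicate 1 (-1.84, adjusted p = 0.518) or WT TIL replicate 2 (-2.93, adjusted p = 0.0569), and Bcl2l1 did not pass without the same libraries (1.59, 1.75 and 1.99, with edgeR adjusted p of 0.0838, 0.425 and 0.176). Without WT spleen replicate 1, Mcl1 passed as well (-1.58, edgeR adjusted p = 0.0376). The number of genes called by edgeR was 1401 without WT spleen replicate 1, 213 without WT spleen replicate 2, 513 without WT TIL replicate 1 and 1046 without WT TIL replicate 2. Summed melanoma, CD8 T cell, dendritic cell and fibroblast markers were higher in both WT TIL than in both WT spleen libraries, and summed NK cell and B cell markers were lower. The NK cell sum followed Klrb1c alone (mean 13.2 CPM in WT spleen and 0.718 in WT TIL). Ncr1 and Klre1 went the other way, with no counts in WT spleen and means of 0.745 and 3.03 CPM in WT TIL. Summed macrophage and neutrophil markers overlapped between the tissues, though 4 of 4 neutrophil markers tested had higher group estimates in WT TIL. The part of these transcripts in these values was not tested.

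The same question for the libraries labelled KO gave higher values in tumor for 7 of the 10 genes, with the sizes largest for Bcl2l11 (5.24-fold) and Pmaip1 (4.36-fold), but none passed edgeR's test, against 228 of 16933 genes (1.35%). Unadjusted p was under 0.05 for 7 of the 10 (5256 genes, 31% of those tested), and 9 of the 10, all but Bcl2, had groups without overlap (10746 genes, 63.5%). The log2 fold change from edgeR was 2.39 for Bcl2l11 (standard error 0.34, adjusted p = 0.0547), 2.12 for Pmaip1 (standard error 0.29, adjusted p = 0.0516), 1.08 for Bcl2a1b (standard error 0.20, adjusted p = 0.0625), 1.21 for Bcl2l1 (standard error 0.34, adjusted p = 0.0980) and 1.62 for Mcl1 (standard error 0.57, adjusted p = 0.140). DESeq2 called these 5 genes, with adjusted p of 1.2e-06, 2.49e-06, 0.00717, 0.0343 and 0.0347, against 3813 of 19396 genes (19.7%). Over all alternatives the adjusted p of edgeR or DESeq2 ranged up to 0.215 for Bcl2l11 and Pmaip1, 0.479 for Bcl2a1b, 0.450 for Bcl2l1 and 0.495 for Mcl1. Bcl2 had a log2 fold change of -0.25 with overlapping groups, Bbc3 one of -1.20, Bid one of -0.48, Bax one of 0.70 and Bak1 one of 0.76, with edgeR adjusted p between 0.0975 and 0.658.

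Within WT spleen, Mcl1 was higher in the library with the larger macrophage sum, and within KO spleen and WT TIL it was lower there. KO TIL replicate 1, the library richest in macrophage markers, held the highest Mcl1 value of all libraries. Without it the log2 fold change of Mcl1 between KO TIL and KO spleen was 0.64, and that of Bcl2l1 0.73, while Bcl2l11 (2.06, edgeR adjusted p = 0.00203), Pmaip1 (1.79, adjusted p = 0.000746) and Bcl2a1b (1.12, adjusted p = 0.00382) passed edgeR's test. Without KO TIL replicate 2, edgeR called 5 of the 10, namely Bcl2l11 (2.67), Pmaip1 (2.40), Mcl1 (2.20), Bcl2l1 (1.58) and Bcl2a1b (1.05), with adjusted p between 0.000496 and 0.00693. The genes called by edgeR numbered 3549 and 4958 without these libraries and 0 without either KO spleen library. All markers of macrophages (7 of 7), melanoma (6 of 6), CD8 T cells (2 of 2), NK cells (3 of 3) and neutrophils (5 of 5) were higher in KO TIL than in KO spleen, with 0, 2, 0, 1 and 3 of them called by edgeR, and 3 of the 4 Treg markers were lower, with 1 called. The part of these transcripts in the values of the 10 genes was not tested.

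Within tumors, KO was set against WT. Mcl1 was 6.39-fold, Bcl2 4.04-fold and Bcl2l11 2.60-fold higher in the TIL libraries labelled KO, so that 2 protective genes and the gene for Bim were all higher, and Bcl2l1 was lower. None of the 10 passed edgeR's test, which called 0 of 15935 genes (0%). Unadjusted p was under 0.05 for 3 of the 10, these same 3 genes, against 1573 genes (9.87%), and 6 of the 10 had groups without overlap, against 5961 genes (37.4%). From edgeR, the log2 fold change was 2.68 for Mcl1 (standard error 0.57, adjusted p = 0.253), 2.02 for Bcl2 (standard error 0.51, adjusted p = 0.297), 1.38 for Bcl2l11 (standard error 0.36, adjusted p = 0.303) and -0.83 for Bcl2l1 (standard error 0.37, adjusted p = 0.562). DESeq2 called 761 of 16264 genes (4.68%), among them 2 of the 10, Mcl1 (adjusted p = 0.000866) and Bcl2 (adjusted p = 0.0190), but not Bcl2l11 (adjusted p = 0.0774). With the replicate numbers as a block, 2 of the 10 and 728 genes were called. With no filter on low counts, 3 of the 10 and 1072 genes were called. Over all alternatives the adjusted p of edgeR or DESeq2 ranged from 0.00027 to 0.9999 for Mcl1, 0.00463 to 0.9999 for Bcl2 and 0.0442 to 0.9999 for Bcl2l11. The other 6 genes lay between -0.24 for Pmaip1 and 0.44 for Bak1 and Bbc3 on the log2 scale, with -0.03 for Bcl2a1b, 0.17 for Bax and -0.20 for Bid.

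Without KO TIL replicate 1 the log2 fold change of Mcl1 within tumors was 1.73, the lowest over the libraries left out, and the highest was 3.23. Without WT TIL replicate 1 it was 2.60 for Mcl1, 1.56 for Bcl2 and 1.67 for Bcl2l11. The values of Bcl2 ran from 1.56 to 2.67 and those of Bcl2l11 from 1.07 to 1.67 over the libraries left out, and edgeR called no gene without any 1 of the 4 libraries. Both KO TIL libraries also held less of the summed Treg markers and more of the summed CD8 T cell, NK cell and neutrophil markers than either WT TIL library. All 7 macrophage markers had higher group estimates in KO TIL (median log2 fold change 1.59), though their sums overlapped between the genotypes, and the part of these cells in the values of Mcl1, Bcl2 and Bcl2l11 was not tested.

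In spleen, the libraries labelled KO and WT differed most in Bak1, lower in KO, and Pmaip1, higher in KO, and neither passed the test. The log2 fold change was -0.04 for Bcl2, -0.18 for Bcl2l1, -0.35 for Mcl1, -0.44 for Bcl2a1b, -0.51 for Bax, -0.98 for Bak1, 0.35 for Bcl2l11, 0.05 for Bid, 0.90 for Pmaip1 and 0.23 for Bbc3. None of the 10 passed edgeR's test (adjusted p between 0.878 and 0.980), which called 0 of 16583 genes (0%), and DESeq2 called none of the 10 and 75 of 18034 genes (0.416%). Unadjusted p was under 0.05 for 0 of the 10, against 489 genes (2.95%), and groups did not overlap for 2 of the 10, Pmaip1, higher in KO, and Bcl2a1b, lower in KO, against 5321 genes (32.1%). Group estimates were lower in KO for 4 of 4 Treg, 2 of 2 CD8 T cell and 5 of 7 macrophage markers. The macrophage median was -0.83, and 2 of 3 dendritic cell markers tested were higher. WT spleen replicate 2 had the highest macrophage sum in spleen, 1561 CPM against 380.2 in its partner. The part of these transcripts in the values of the 10 genes was not tested. Without WT spleen replicate 1, which leaves WT spleen replicate 2 alone in its group, edgeR called 3972 genes, among them Pmaip1 (1.61, adjusted p = 0.00153) and Bak1 (-1.50, adjusted p = 0.0267). Without the other libraries it called 32 (KO spleen replicate 1), 21 (KO spleen replicate 2) and 47 (WT spleen replicate 2) genes and none of the 10, and without WT spleen replicate 2 Bak1 was at 0.02 on the log2 scale.

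An interaction over all 8 libraries asked if KO differs from WT in another way in tumors than in spleens. Mcl1 had the largest interaction, a log2 value of 3.02 (standard error 0.68, adjusted p = 0.270 from edgeR), followed by Bcl2 at 2.06 (standard error 0.62, adjusted p = 0.435 from edgeR). The others were 1.41 for Bak1, 1.03 for Bcl2l11, 0.68 for Bax, 0.41 for Bcl2a1b, 0.20 for Bbc3, -0.25 for Bid, -0.65 for Bcl2l1 and -1.14 for Pmaip1. None of the 10 passed edgeR's test, which called 0 of 17870 genes (0%), with an unadjusted p under 0.05 for 2 of the 10 and 1399 genes (7.83%). With the replicate numbers as a block, 1 of the 10 and 277 genes were called, and with no filter on low counts 2 and 752. DESeq2 called Mcl1 (adjusted p = 0.00780) and 307 of 16585 genes (1.85%), and the adjusted p of Mcl1 ranged from 0.000243 to 0.9999 over all alternatives of edgeR and DESeq2. Without any 1 library the interaction of Mcl1 lay between 2.06 and 3.61. Several lists of markers of other cells had interactions of the same direction, with medians of 2.98 for macrophages (7 of 7 higher), 4.10 for neutrophils (5 of 5) and 4.64 for CD8 T cells (2 of 2). Medians were 3.32 for NK cells (2 of 3 higher), 3.18 for B cells (4 of 4), 1.71 for melanoma (6 of 6) and 0.39 for dendritic cells (3 of 4). Fibroblast markers had a median of -2.73 (2 of 2 tested lower) and the Treg markers one of -2.44 (4 of 4 lower). The part of these transcripts in the values of Mcl1 and Bcl2 was not tested. The interaction of Bcl2 lay between 1.63 and 2.71 without any 1 library, and its adjusted p ranged from 0.0445 to 0.9999 over the alternatives of edgeR and DESeq2, passing only in edgeR with no filter on low counts. Bcl2 fell from spleen to tumor in WT and did not pass in KO, but edgeR's interaction test in the main fit did not pass either.

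**Figure D2:**
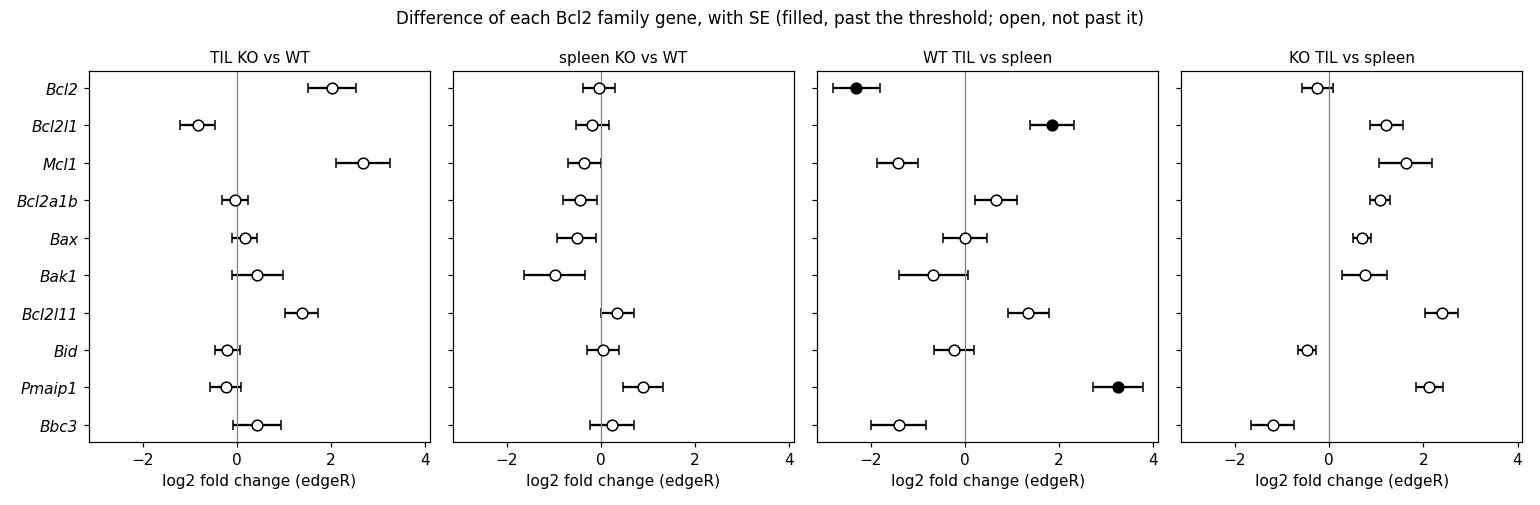
Log2 fold changes of the 10 genes from edgeR in the 4 comparisons, with bars of 1 standard error on each side. Filled points mark the 3 values that passed the test, Bcl2 (-2.31), Bcl2l1 (1.85) and Pmaip1 (3.25) in WT TIL against spleen.

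The balance of members was measured as log2 ratios of counts per kilobase within each library, which scaling between libraries does not touch. The ratio of Bcl2 to Bcl2l11 was 1.79 and 1.72 in KO spleen, 1.91 and 2.37 in WT spleen, -1.55 and -0.25 in KO TIL, and -2.43 and -0.77 in WT TIL. Per kb, Bcl2 thus exceeded Bcl2l11 in all splenic libraries and was below it in all TIL libraries. Mcl1 to Bcl2l11 was 4.25 and 3.37 in KO spleen, 4.19 and 4.79 in WT spleen, 3.34 and 2.38 in KO TIL, and 1.40 and 2.09 in WT TIL. Mcl1 to Pmaip1 was 1.92 and 1.65 in KO spleen, 2.41 and 3.85 in WT spleen, 1.60 and 0.64 in KO TIL, and -1.54 and -1.72 in WT TIL. Noxa transcripts thus outnumbered those of Mcl1 per kb in the WT TIL libraries only. Bcl2 to Bcl2l1 was -0.04 and 0.55 in KO spleen, -0.27 and 0.60 in WT spleen, -1.94 and -0.39 in KO TIL, and -4.79 and -3.45 in WT TIL. Bcl2 to Mcl1 was -2.47 and -1.65 in KO spleen, -2.28 and -2.43 in WT spleen, -4.89 and -2.62 in KO TIL, and -3.83 and -2.85 in WT TIL. In both ratios all TIL libraries were below all splenic libraries.

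With the genotypes pooled, 4 TIL against 4 splenic libraries, the mean log2 ratio was lower in TIL by a difference of -3.19 for Bcl2 to Bcl2l11, -1.85 for Mcl1 to Bcl2l11, -2.71 for Mcl1 to Pmaip1, -2.85 for Bcl2 to Bcl2l1 and -1.34 for Bcl2 to Mcl1. Within each genotype the sizes were unequal, with -4.76 in WT and -0.67 in KO for Mcl1 to Pmaip1, -4.29 and -1.42 for Bcl2 to Bcl2l1, -2.75 and -0.96 for Mcl1 to Bcl2l11, -3.74 and -2.65 for Bcl2 to Bcl2l11, and -0.99 and -1.69 for Bcl2 to Mcl1. With 1 library left out, KO ran from -1.15 to -0.19 for Mcl1 to Pmaip1 and -2.19 to -0.65 for Bcl2 to Bcl2l1. It ran from -1.44 to -0.48 for Mcl1 to Bcl2l11 and from -2.83 to -0.56 for Bcl2 to Mcl1. In WT, Bcl2 to Mcl1 ran from -1.48 to -0.50. Without KO TIL replicate 1, the KO difference of Bcl2 to Mcl1 (-0.56) was smaller in size than the WT one. In the two-sided exact permutation test over the pooled libraries each of the 5 ratios had p = 0.0286, the smallest that 4 against 4 can give, and 0.0457 after Benjamini-Hochberg adjustment over the 8 ratios. The test shuffled libraries without regard to genotype. Each of the 5 ratios holds Bcl2 or Mcl1, so they are not separate results, and the adjusted value rests on their tie at the smallest p. Bax to Bcl2 was 1.74 higher in TIL (p = 0.0571, exact permutation test, 0.0762 adjusted), the summed protective to the summed BH3-only genes had a difference of -0.66, with -1.24 in WT and -0.09 in KO (p = 0.0857, exact permutation test, 0.0980 adjusted), and Bak1 to Mcl1 one of 0.13 (p = 0.886, exact permutation test). Leaving out any 1 of 6 libraries, the 4 splenic and the 2 WT TIL libraries, raised the adjusted exact permutation p of all 5 to between 0.0571 and 0.163. The differences themselves changed less, from -3.35 to -2.80 for Bcl2 to Bcl2l11 and from -1.57 to -1.16 for Bcl2 to Mcl1. Without either KO TIL library the 5 ratios still passed, and without KO TIL replicate 2 Bax to Bcl2 passed as well (2.15). Summed melanoma, CD8 T cell and dendritic cell markers were also higher in all 4 TIL than in all 4 splenic libraries, and their part in the ratios was not tested.

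Within tumors, 6 of the 8 ratios did not overlap between genotypes, and neither did 37.4% of the single genes tested. All 6 hold Bcl2 or Mcl1, the summed ratio among them, so they are not separate results. The difference of KO from WT was 2.96 for Bcl2 to Bcl2l1, 2.75 for Mcl1 to Pmaip1, 1.11 for Mcl1 to Bcl2l11, 0.40 for the summed protective to the summed BH3-only genes, -1.91 for Bax to Bcl2 and -2.07 for Bak1 to Mcl1, each with p = 0.333 in the two-sided exact permutation test, the smallest that 2 against 2 can give. Bax to Bcl2 was 2.88 and 2.33 in KO TIL and 5.08 and 3.94 in WT TIL, and the summed ratio 2.29 and 2.33 in KO TIL and 2.05 and 1.77 in WT TIL. Bax was thus lower relative to Bcl2, and the summed ratio higher, in each KO TIL library than in either WT TIL library. Bcl2a1b, whose counts are uncertain, made up most of the protective sum per kb (324 CPM per kb in KO TIL and 331 in WT TIL) and hardly differed, Bcl2l1 was lower in KO TIL, and Mcl1 had the largest difference (175 against 27.2 CPM per kb). Without KO TIL replicate 1 the difference was -0.98 for Bak1 to Mcl1 and 0.63 for Mcl1 to Bcl2l11, and without KO TIL replicate 2 it was -3.15 and 1.59. For the summed ratio it was 0.54 without WT TIL replicate 1 and 0.26 without WT TIL replicate 2. Bcl2 to Bcl2l11 (0.70) and Bcl2 to Mcl1 (-0.41) overlapped between the genotypes. In spleen, the genotypes did not overlap for 32.1% of the single genes tested. The summed ratio there was 2.59 and 2.21 in KO and 2.75 and 3.55 in WT, a difference of -0.76 without overlap, and Mcl1 to Pmaip1 (-1.34) and Bcl2 to Bcl2l11 (-0.38) were also lower in KO without overlap. These 3 differences were -0.36, -0.62 and -0.16 without WT spleen replicate 2, and -1.15, -2.06 and -0.61 without WT spleen replicate 1.

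**Figure D3:**
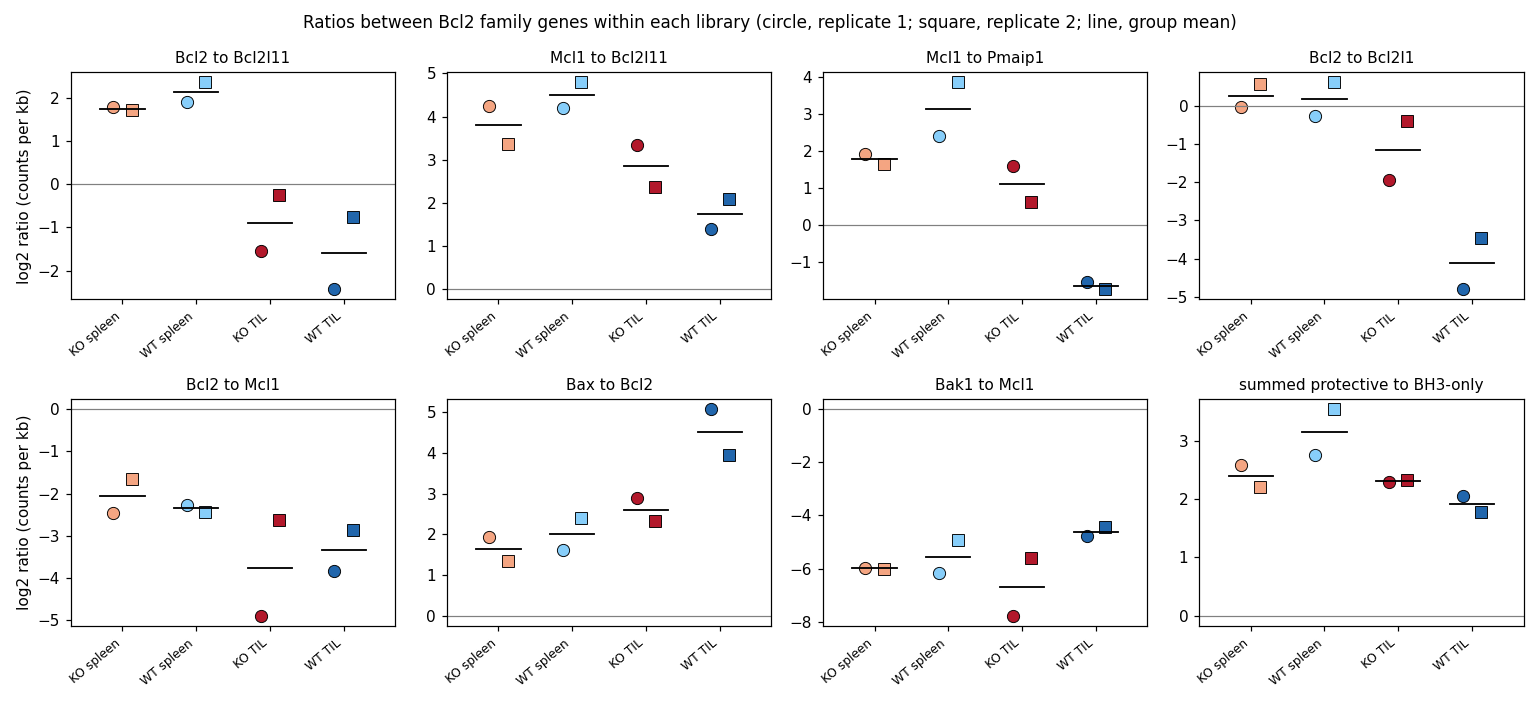
Log2 ratios of counts per kilobase between members in each library, by group, with a point for each library and a line at each group mean. The ratio of Bcl2 to Bcl2l11 lies above 0 in the splenic libraries (1.72 to 2.37) and below 0 in the TIL libraries (-2.43 to -0.25).

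As a list, the 10 genes had log2 fold changes with a median of -0.12 in WT TIL against spleen (5 higher, 5 lower; all genes tested -0.04), 0.92 in KO TIL against spleen (7 higher, 3 lower; all genes 0.01), 0.30 in KO against WT TIL (6 higher, 4 lower; all genes 0.04) and -0.11 in KO against WT spleen (4 higher, 6 lower; all genes -0.02). The interaction had a median of 0.54 against 0.07 for all genes. The direction was thus mixed in all comparisons.

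Other genes of the same pathways were described by lists, to be read against the shares of all genes that edgeR called, 5.97% between the WT tissues, 1.35% between the KO tissues and 0% in the other comparisons. Of 15 other Bcl2 family genes, 12 or 13 were tested, and edgeR called 1, Bnip3, which encodes a mitochondrial protein induced by hypoxia, in WT TIL against spleen. The level of Bnip3 was 11.8 and 16.0 CPM in KO spleen, 12.0 and 10.5 in WT spleen, 429 and 177 in KO TIL, and 380.4 and 288 in WT TIL. Its log2 fold change was 4.90 in WT (standard error 0.51, adjusted p = 0.00123 from edgeR) and 4.47 in KO (adjusted p = 0.0501 from edgeR), and the WT call held without any 1 of the 4 libraries. The list had medians of -0.33 and 0.25 in the WT and KO tissue comparisons, -0.16 in KO against WT TIL and -0.0007 in KO against WT spleen. DESeq2 called 2 of 13 between the WT tissues and 5 of 13, 3 higher and 2 lower, between the KO tissues (9.91% and 19.7% of all genes). Of 16 apoptosome and caspase genes, edgeR called 0 in any comparison, where unadjusted p was under 0.05 for 3 genes between the WT tissues, 6 between the KO tissues, 1 within TIL and 0 within spleen (20.5%, 31%, 9.87% and 2.95% of all genes), and DESeq2 called 2 between the WT tissues, 2 between the KO tissues (9.91% and 19.7% of all genes) and 0 in the other comparisons. Its medians were 0.32 and -0.01 between tissues in WT and KO, -0.04 within TIL and 0.10 within spleen.

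Of 10 death receptor genes, edgeR called Fasl, which encodes the ligand of Fas, in WT TIL against spleen. Fasl was at 11.4 and 9.76 CPM in KO spleen, 10.7 and 9.81 in WT spleen, 53.7 and 209 in KO TIL, and 47.1 and 49.3 in WT TIL, a log2 fold change of 2.23 in WT (standard error 0.45, adjusted p = 0.0192 from edgeR). The edgeR call of Fasl was lost without WT spleen replicate 2, WT TIL replicate 1 or WT TIL replicate 2, with log2 fold changes of 2.22, 2.28 and 2.24. All TIL libraries were above all splenic libraries, and the list had medians of 0.39 in WT and -0.06 in KO between tissues, -0.26 within TIL and -0.06 within spleen. DESeq2 called 1 of the 10 between the WT tissues and 2 between the KO tissues, near the shares of all genes it called (9.91% and 19.7%). Of 12 targets and regulators of p53, 11 were tested, and edgeR called Cdkn1a and Perp higher in WT TIL than in WT spleen (log2 fold changes 4.87 and 3.91, adjusted p = 0.00138 and 0.00632) and Cdkn1a higher in KO TIL than in KO spleen (5.83, adjusted p = 0.0485). Cdkn1a, which encodes the cell cycle inhibitor p21, was at 8.10 and 6.16 CPM in KO spleen, 6.74 and 8.39 in WT spleen, 596 and 198 in KO TIL, and 269.6 and 172 in WT TIL. Perp was at 5.56 and 3.88 CPM in KO spleen, 2.10 and 0.999 in WT spleen, 10.5 and 33.7 in KO TIL, and 25.4 and 21.4 in WT TIL. Both were higher in all TIL than in all splenic libraries, and both WT calls held without any 1 library. The KO call of Cdkn1a was lost without either KO spleen library, with log2 fold changes of 6.04 and 5.66. Within each TIL group Cdkn1a was higher in the library with more melanoma and macrophage markers. All 6 melanoma markers were also called higher in WT TIL than in WT spleen by edgeR, and the part of other cells in the values of Bnip3, Fasl, Cdkn1a and Perp was not tested. The p53 list had medians of 0.74 in WT and -0.10 in KO between tissues, 0.10 within TIL and 0.32 within spleen. In DESeq2, which tested all 12 of its genes between the KO tissues, that median was 0.49, of the other sign, with 3 genes called higher and 1 lower (19.7% of all genes called).

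Of 14 genes of the cytokine survival signal, edgeR called Foxo1, which encodes a transcription factor of the FOXO family, lower in WT TIL than in WT spleen (log2 fold change -1.86, standard error 0.46, adjusted p = 0.0405). Foxo1 was at 125 and 114 CPM in KO spleen, 121 and 182 in WT spleen, 57.1 and 72.8 in KO TIL, and 36.6 and 47.3 in WT TIL. Its edgeR call was lost without WT spleen replicate 2, WT TIL replicate 1 or WT TIL replicate 2, with log2 fold changes of -1.49, -1.66 and -2.01. Socs2, a target of STAT5, was at 49.8 and 43.4 CPM in KO spleen, 50.8 and 63.4 in WT spleen, 11.7 and 11.1 in KO TIL, and 58.9 and 88.8 in WT TIL. It was lower in KO TIL than in KO spleen (-2.01 on the log2 scale with a standard error of 0.24, edgeR adjusted p = 0.0485), and both KO TIL libraries were below the other 6. This call too was lost without either KO spleen library, with log2 fold changes of -1.89 and -2.07. Il2ra, which encodes the alpha chain of the interleukin-2 receptor, was at 261 and 245 CPM in KO spleen, 384 and 197 in WT spleen, 65.2 and 102 in KO TIL, and 559.7 and 561 in WT TIL. Within TIL, Socs2 had a log2 fold change of -2.69 and Il2ra one of -2.75, and neither passed (adjusted p = 0.177 for both from edgeR), while DESeq2 called these 2 of the 14 (adjusted p = 4.44e-06 and 1.64e-06; 4.68% of all genes called). Unadjusted p from edgeR was under 0.05 for 6 of the 14 within TIL (9.87% of all genes). Il2ra is also 1 of the 4 Treg markers, all lower in KO TIL, and the part of that difference in these values was not tested. The cytokine list had medians of 0.36 in WT and -0.51 in KO between tissues, -0.86 within TIL (10 of 14 lower) and 0.17 within spleen.

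The genes whose log2 CPM followed Bcl2 most closely over the 8 libraries, among 17870 genes, were Gm17641 (Pearson r 0.987), Ank (0.972), Foxd2 (0.968), Atp1b1 (0.968) and Tagap1 (0.967). Gm17641 and Foxd2 were hardly detected, at 0.0359 to 0.535 and 0.0719 to 1.14 CPM, with values of Gm17641 in WT TIL replicate 1 and of Foxd2 in the same library under the floor. Ank was at 33.0 and 37.2 CPM in KO spleen, 35.8 and 28.4 in WT spleen, 22.4 and 26.7 in KO TIL, and 6.43 and 9.92 in WT TIL. Those closest to Bcl2l11 were Sema3e (0.992), Npr2 (0.991), Tarm1 (0.988), I830127L07Rik (0.986) and Vps37c (0.984). Sema3e and Npr2 had no counts in 3 of the 4 splenic libraries and reached at most 1.05 and 4.76 CPM, and Tarm1 had none in WT spleen replicate 2. Tarm1 was at 84.3 and 12.8 CPM in KO TIL and 5.96 and 0.371 in WT TIL. I830127L07Rik was at 49.7 and 15.0 CPM in KO TIL and 4.49 and 2.60 in WT TIL. In spleen, Tarm1 and I830127L07Rik reached at most 0.254 and 0.730 CPM. Like Sema3e and Npr2, both were highest in KO TIL replicate 1, the library richest in macrophage markers. Vps37c was at 17.4 and 19.3 CPM in KO spleen, 18.0 and 15.1 in WT spleen, 46.8 and 32.7 in KO TIL, and 29.9 and 25.0 in WT TIL. The 8 points fall into 4 groups and share their libraries, so these values describe likeness only.

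Base composition was set beside the TIL comparison after its values had been seen. The richest 200-nt window of the transcript held 82.0% G and C in Mcl1, 76.5% in Bcl2 and 66.0% in Bcl2l11. The genes tested whose richest window lay in the same 5-point range had log2 fold changes of KO against WT TIL with a median of 1.04 for Mcl1 (728 genes), 0.26 for Bcl2 (1637 genes) and -0.0046 for Bcl2l11 (2784 genes), against 2.68, 2.02 and 1.38 for the genes themselves. The 90th percentiles of these genes were 2.66, 1.77 and 0.98, so that about 1 in 10 genes of like composition had a value as high as that of Mcl1. A longest transcript was found for 97.2% of the genes tested, and the part of base composition in the values was not tested.

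Promoters are shown for Bcl2, Mcl1 and Bcl2l11, the 3 genes that had an unadjusted p under 0.05 and were higher in both KO TIL libraries. Sequences of 9 of the 10 genes were read from RefSeq (GRCm38.p6), and each is given 5′ to 3′ on the strand of its gene as the 250 bases before a transcription start, upstream of the transcript. They are chr1:106714291-106714540 on the minus strand for Bcl2, chr3:95658471-95658720 on the plus strand for Mcl1 and chr2:128125788-128126037 on the plus strand for Bcl2l11. Capitals mark matches, on either strand, to GAAAG, the core bound by Blimp1, TTCNNNGAA, bound by STAT factors, or GTAAACA, bound by FOXO factors. These letters are in 51.5%, 7.02% and 3.17% of 32851 such windows. GAAAG was found, on the opposite strand, at -137 and -133 in Bcl2, at -14 in Mcl1 and at -5 in Bcl2l11, counted back from the start, and GTAAACA at -227 in Bcl2l11. A second Bcl2l11 window, chr2:128127325-128127574, held no match. GAAAG was also found upstream of Bcl2l1, Bcl2a1b, Bak1 and Bid, genes that were not higher in both KO TIL libraries with an unadjusted p under 0.05, and GTAAACA upstream of Bbc3. A match is a description of the letters and not a site.
Bcl2: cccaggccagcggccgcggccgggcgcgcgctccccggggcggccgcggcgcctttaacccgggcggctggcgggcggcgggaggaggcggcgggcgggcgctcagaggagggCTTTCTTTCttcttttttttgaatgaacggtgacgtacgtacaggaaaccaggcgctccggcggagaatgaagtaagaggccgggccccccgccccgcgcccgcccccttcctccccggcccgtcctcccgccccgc
Mcl1: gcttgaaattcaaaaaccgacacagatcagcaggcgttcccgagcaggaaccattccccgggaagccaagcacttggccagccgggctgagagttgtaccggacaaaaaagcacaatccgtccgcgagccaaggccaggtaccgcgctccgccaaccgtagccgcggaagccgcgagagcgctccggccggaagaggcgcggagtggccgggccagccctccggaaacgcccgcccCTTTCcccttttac
Bcl2l11: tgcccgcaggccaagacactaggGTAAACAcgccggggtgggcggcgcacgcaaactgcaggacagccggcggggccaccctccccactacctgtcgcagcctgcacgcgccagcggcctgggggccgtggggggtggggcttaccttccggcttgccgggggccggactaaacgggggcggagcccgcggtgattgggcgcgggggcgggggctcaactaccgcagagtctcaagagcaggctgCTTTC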

How the data were processed

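RNA of sorted eTreg cells was measured in 8 libraries. The authors deposited counts per gene, not normalized, made by trimming (Trimmomatic 0.36), alignment to GRCm38 (STAR 2.5.2b) and counting of unique reads in exons (featureCounts, Subread 1.5.2); the use of strand is not given in the sources used here. Each comparison used its 4 libraries, and the interaction all 8, in edgeR 4.0.16 (R 4.3.3, limma 3.58.1; TMM, filterByExpr, quasi-likelihood test, Benjamini-Hochberg), with calls at an adjusted p of 0.05 and a log2 fold change over 1. Standard errors are the log2 fold change over the square root of F. Scripts were tested on simulated data. Alternatives were DESeq2 1.42.0, its size factors, no filter, all 8 libraries in the fit, no fold change threshold, a replicate block and leaving out each library; for ratios, no length scaling, 1 added count and all Bcl2a1 genes. DESeq2's filter was tuned to 0.05, as first run, and to its default of 0.1, and the counts under both had been seen before 0.05 was kept. Named genes are the members, list genes that passed (at most 6 a list and comparison, or else the 3 of smallest p), markers, Prdm1, and the 5 genes most correlated with Bcl2 and with Bcl2l11 in log2 CPM (prior count 2). The members and lists were chosen with earlier results of these data known.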

Additional observations from a re-analysis of the deposited data

Results flagged for a closer look

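Some contrasts ran in opposite directions in the groups they were made in. Mcl1 was lower in both WT TIL libraries than in both WT spleen libraries and higher in both KO TIL than in both KO spleen libraries, an interaction of 3.02 on the log2 scale (adjusted p = 0.270 from edgeR). Il2ra had the reverse pattern, with 65.2 and 102 CPM in KO TIL against 261 and 245 in KO spleen, and 559.7 and 561 in WT TIL against 384 and 197 in WT spleen, an interaction of -2.55 (adjusted p = 0.269 from edgeR). Bnip3l, a mitochondrial relative of Bnip3, was at 209.5 and 213 CPM in KO TIL against 242 and 273 in KO spleen, and at 306 and 409 in WT TIL against 242 and 271 in WT spleen (interaction -0.76, adjusted p = 0.755 from edgeR). Cish, a target of STAT5, was at 212 and 192 CPM in KO TIL against 256 and 265 in KO spleen, and at 375 and 559.8 in WT TIL against 359 and 333 in WT spleen (interaction -0.80, adjusted p = 0.753 from edgeR).

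Trp53inp1, a p53 target, was lower in KO than in WT TIL (170.2 and 113 against 319.9 and 504 CPM) and higher in KO than in WT spleen (482 and 402 against 369 and 126 CPM), an interaction of -2.37 (adjusted p = 0.439 from edgeR). None of these 5 interactions passed edgeR's test in the main fit, while DESeq2 called those of Mcl1 (adjusted p = 0.00780) and Il2ra (adjusted p = 0.0106). The log2 ratio of Mcl1 to Pmaip1 was higher in KO than in WT in TIL and lower in spleen, so that the difference between genotypes was 4.09 larger in TIL, and that of the summed protective to the summed BH3-only genes likewise 1.16 larger; whether the genotype difference itself changes between tissues was not tested for either ratio.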

How the results depend on the processing

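Groups of 2 limit every test here. Without 1 library, the lone library of a group is assumed to vary like the others. Over all alternatives, member fold changes kept direction and side of the threshold in 460 fits, newly passed in 46, no longer passed in 6 and changed sign in 18, and ratios did so in 231, 2, 30 and 14. DESeq2's size factors in edgeR, no fold change threshold and 1 added count changed no call of the 10 genes or of a ratio. The cause of the changes was not tested.

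In KO against WT TIL, where edgeR called 0 genes, the genes called were 761 with DESeq2 (2 of the 10), 744 with its filter at 0.1 (2), 1072 with no filter on low counts (3), 135 in the fit of all 8 libraries and 728 with the replicate block (2). In spleen they were 75, 75, 167 (no filter) and 101 (block), and 21 to 3972 (0 to 2 of the 10) with 1 library left out. Between the WT tissues they were 1805 (5), 1777 (5) and 1922 (no filter), and 213 to 1401 (1 to 4) with 1 library left out. Between the KO tissues they were 3813 (5), 3775 (5), 3183 (5, no filter), 1743 (2, all 8 libraries) and 0 to 4958 (0 to 5) with 1 library left out. For the interaction they were 307 (1), 309 (1), 752 (2, no filter) and 277 (1, block).

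Replicate numbers are not stated to pair libraries: deviations of same-numbered libraries correlated by 0.234 in TIL, 0.155 in spleen, -0.0243 in WT and -0.220 in KO. With the numbers as a block, 192 genes were called between the KO tissues and 1463 between the WT tissues. Crossed pairs in KO, added after seeing the data, gave 2934 genes and 3 of the 10.

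Some fold changes that did not pass in the main fit changed sign. Bcl2 in spleen was 0.0257 with no filter. With 1 library left out, Bcl2a1b ran from -0.11 to 0.0269 within TIL. Within spleen, Bcl2 ran from -0.28 to 0.20, Bcl2l1 from -0.47 to 0.26, Bax from -0.87 to 0.0882, Bak1 from -1.50 to 0.0211, Bid from -0.16 to 0.36 and Bbc3 from -0.30 to 0.66. Between the WT tissues, Bax ran from -0.40 to 0.64, Bak1 from -1.23 to 0.37 and Bid from -0.42 to 0.028, and between the KO tissues Bcl2 from -0.63 to 0.0666. The interaction of Bbc3 ran from -0.17 to 0.74.

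Ratios with 1 library left out ran, for KO against WT TIL, from -0.13 to 1.53 (Bcl2 to Bcl2l11) and -1.54 to 0.72 (Bcl2 to Mcl1). For spleen they ran from -0.35 to 0.53 (Bcl2 to Bcl2l1), -0.11 to 0.70 (Bcl2 to Mcl1), -0.78 to 0.0319 (Bax to Bcl2) and -1.05 to 0.17 (Bak1 to Mcl1). Between the KO tissues they ran from -1.77 to 0.40 (Bak1 to Mcl1) and -0.27 to 0.10 (summed), and the summed ratio was 0.18 with all Bcl2a1 genes. For 4 TIL against 4 splenic libraries they ran from -3.53 to -2.80 (Bcl2 to Bcl2l11), -2.20 to -1.55 (Mcl1 to Bcl2l11), -3.33 to -2.22 (Mcl1 to Pmaip1), -3.61 to -2.14 (Bcl2 to Bcl2l1), -1.65 to -0.90 (Bcl2 to Mcl1), 1.23 to 2.15 (Bax to Bcl2) and -0.27 to 0.83 (Bak1 to Mcl1). The summed ratio passed without length scaling (-0.95, exact permutation test, 0.0381 adjusted). With all Bcl2a1 genes it was -0.38 and did not pass (exact permutation test, 0.359 adjusted). With 1 library left out it ran from -0.85 to -0.40 and did not pass.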
